A study of Mus musculus with 40 samples.

Results

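Neurofilaments are the intermediate filaments of the axon, built as mixed polymers of a light, a medium and a heavy subunit (Nefl, Nefm and Nefh) together with alpha-internexin (Ina). They set the calibre of large myelinated axons, and the light chain protein is measured in blood and cerebrospinal fluid as a sign of axonal damage. The other genes grouped with them here include Uchl1, a neuronal ubiquitin hydrolase that is also measured in blood after head injury. Stmn1 and Stmn2, the tubulin-binding stathmins, and Gap43 of the growth cone membrane encode proteins of growing and regrowing axons. Sptan1 and Sptbn1 encode the 2 spectrin chains of the membrane skeleton. Calpain cleaves alpha-spectrin in injured axons, which is why its fragments are used as an injury marker. These are protein measurements, and the data described here are the amounts of the RNAs in the cortex.

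The genes were chosen by name, with earlier results of these data known and no threshold on their values: 10 rows of the count table, of 55539 features listed, carried the symbols Nefl, Nefm, Nefh, Ina, Uchl1, Stmn1, Stmn2, Gap43, Sptan1 and Sptbn1. All 10 passed the filter on low counts, which left 15224 features for testing. No member passed an adjusted p under 0.05 (edgeR quasi-likelihood test, Benjamini-Hochberg adjustment over all genes tested) in any of 19 comparisons, so no member is called changed below. DESeq2 called Stmn1 and Gap43 in 1 comparison, 5xCHI against 1xCHI, where it called 3.44% of all genes, and no member in the others. Of the 190 tests of members, 24 had an unadjusted p under 0.05, and these are the ones described in detail. Over all genes, 7.41% of the tests of the same 19 comparisons did, and the comparisons share mice.

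The tissue was the somatomotor cortex of the left side, taken for RNA sequencing from female mice of the 3xTg-AD line at 2 to 4 months of age. These mice, on a C57BL/6J background, carry mutant forms of human genes, APP and MAPT among them, and since every animal carried them, sham-injured controls included, no wild-type mouse enters any comparison. The closed-head injury (CHI) was a weight dropped onto the intact skull under isoflurane, once a day, and brains were collected after 1, 3 or 5 injuries, either 30 min, 4 h or 24 h later, and after 2 or 4 injuries at 24 h only. Sham-injured mice had the anaesthesia alone and formed 1 group of 4, whatever their number of exposures. There were 3 mice at 30 min, 3 at 4 h and 4 at 24 h after 1xCHI, 3, 2 and 4 after 3xCHI, 3, 3 and 4 after 5xCHI, and 3 each after 2xCHI and 4xCHI. Of 40 samples 39 were used. Sample 30 (3xCHI, 4 h) was left out, because its animal had been set aside as an outlier on other measurements. Values are CPM, a gene's count relative to the library total, adjusted by TMM factors, and each difference is a log2 difference between groups from the fit, given with its standard error (SE).

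Of the 10 members, 4 (Nefl, Nefm, Ina and Uchl1) overlap a gene on the opposite strand, and Stmn1 has a near-identical copy elsewhere. In the mm10 build, Nefl (chr14:68083863-68089095, plus strand) and Nefm (chr14:68082590-68124846, minus strand) overlap on opposite strands, and 32.2% of the 31-base words of the Nefl transcript are found in reverse in the Nefm gene model. Ina (chr19:47014698-47025327, plus) shares 13.3% of its words in reverse with Nt5c2, and Uchl1 (chr5:66676091-66687234, plus) shares 14.8% with the antisense gene Uchl1os, which had 0 to 9 counts per sample. Whether the counting used strand is not stated, so reads of these overlaps cannot be assigned with certainty. Nefh lies at chr11:4938754-4948064 (minus), Stmn1 at chr4:134468320-134473843 (plus), Stmn2 at chr3:8509360-8561606 (plus), Gap43 at chr16:42248442-42340651 (minus), Sptan1 at chr2:29965560-30031451 (plus) and Sptbn1 at chr11:30099395-30268175 (minus). All 10 are protein-coding genes.

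Stmn1 has a processed pseudogene, Gm11223 (chr4:69925630-69926079, minus strand), and it was the one member whose estimated counts were not whole numbers, in 39 of 39 samples, whereas those of the other 9 were whole in 39 of 39. The sequences show where gene and copy are alike. Exon 3 of Stmn1 (chr4:134470667-134470839, coding, 173 bases) is identical in the copy, and exon 4 (chr4:134472804-134472995, coding, 192 bases) differs from it at 1 base, the substitution A88G, counted from 1 at the start of the exon and given as the base of Stmn1, the position and the base of the copy. The capital letter marks that base.
Stmn1 exon 3: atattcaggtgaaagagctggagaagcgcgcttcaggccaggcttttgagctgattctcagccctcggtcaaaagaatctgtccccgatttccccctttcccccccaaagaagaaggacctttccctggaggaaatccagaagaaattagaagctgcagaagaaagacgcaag
Stmn1 exon 4: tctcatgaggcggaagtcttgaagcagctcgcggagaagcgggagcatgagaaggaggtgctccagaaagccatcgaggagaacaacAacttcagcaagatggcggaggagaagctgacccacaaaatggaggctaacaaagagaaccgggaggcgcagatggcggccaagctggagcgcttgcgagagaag
Gm11223 over exon 4: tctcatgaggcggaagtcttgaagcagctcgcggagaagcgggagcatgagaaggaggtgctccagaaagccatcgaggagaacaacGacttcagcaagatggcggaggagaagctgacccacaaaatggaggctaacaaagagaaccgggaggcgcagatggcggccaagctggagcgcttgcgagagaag
The copy was given 162.5 to 605.2 counts per sample, which was 1.63% to 4.49% of the count of Stmn1.

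The 2 spectrin genes moved together over the samples more closely than any other pair of members, and their promoters are shown for that reason. Both also rose with the share of the library that long genes took, the length tilt defined below. Their r with it was 0.953 for Sptan1 and 0.957 for Sptbn1. The part of the promoters in this relation was not tested. Of the 10 members, 4 are in the RefSeq promoter table of GRCm38.p6 (250 bases before and 50 after the start), as 5 promoters. The letters GGGCGG, on either strand, were searched in each, and capitals mark a match, written as CCGCCC where it lies on the other strand. In Sptan1 (chr2:29965310-29965609, plus) the letters occurred 5 times in 300 bases of 73.3% GC, and in the first promoter of Sptbn1 (chr11:30198208-30198507, minus) they occurred once in a stretch of 57.0% GC.
Sptan1 promoter: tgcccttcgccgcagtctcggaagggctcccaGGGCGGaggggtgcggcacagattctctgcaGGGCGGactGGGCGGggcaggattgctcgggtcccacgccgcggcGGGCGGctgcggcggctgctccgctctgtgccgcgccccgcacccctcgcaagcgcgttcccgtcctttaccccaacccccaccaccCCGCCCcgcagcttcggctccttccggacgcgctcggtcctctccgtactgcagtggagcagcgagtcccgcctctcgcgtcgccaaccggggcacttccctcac
Sptbn1 promoter: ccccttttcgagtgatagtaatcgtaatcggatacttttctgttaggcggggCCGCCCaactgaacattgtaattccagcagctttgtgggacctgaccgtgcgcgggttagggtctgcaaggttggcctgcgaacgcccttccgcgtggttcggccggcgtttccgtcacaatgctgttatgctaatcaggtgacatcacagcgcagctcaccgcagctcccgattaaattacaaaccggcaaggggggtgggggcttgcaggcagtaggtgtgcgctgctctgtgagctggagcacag
A second Sptbn1 promoter (chr11:30219723-30220022, minus) held no match, Ina (chr19:47014431-47014730, plus) held 2 and Uchl1 (chr5:66675871-66676170, plus) none. Of all 32851 promoters of this length, 35.7% held the letters, and the median GC content was 52.7%, so a match is common and is given as a description of the sequence. Further motifs were searched on both strands and matched none of the 5: TATAAA (held by 13.6% of all promoters), CCAAT (37.4%), TGANTCA (7.81%), CACGTG (7.15%) and TGACGTCA (1.79%).

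The samples summed to 15926014 to 27859547 counts, with a median of 19028778, and a member had between 1361 (Nefh) and 32614 (Sptan1) counts per sample, so counting error was small beside the spread between mice. Markers of cortex were present: the excitatory neuron gene Slc17a7 had a median of 1180 CPM, the upper layer gene Cux2 108 CPM and the layer 5 gene Fezf2 33.1 CPM. Some samples were also high in markers of neighbouring tissue. The 8 striatal markers summed to a median of 191 CPM, and to 822 CPM in sample 26 (1xCHI, 24 h), 766 in sample 39 (sham-injured) and 654 in sample 32 (5xCHI, 4 h). The 6 choroid plexus markers had a median sum of 20.8 CPM and reached 2510 CPM in sample 31 (5xCHI, 30 min), 1300 in sample 32 and 861 in sample 24 (4xCHI). Sample 15 (1xCHI, 4 h) had the highest meningeal sum (484 CPM, median 114) and the highest thalamic sum (122 CPM, median 56.5). The 6 hippocampal markers summed to 122 to 215 CPM. Sample 10 (5xCHI, 4 h) and sample 11 (5xCHI, 24 h) stood apart in glial markers. The 8 microglia markers summed to 739 and 935 CPM in them and to between 260 and 447 CPM in the other 37, and the 8 pan-neuronal markers summed to 6240 and 6260 CPM, the 2 lowest values, against 7270 CPM or more elsewhere. Members' results that rest on these mice are given with and without both, as are those of the glial and regeneration genes named. The 6 samples highest in neighbouring tissue (15, 24, 26, 31, 32 and 39) were likewise left out together, and the value is given where an unadjusted p was then no longer under 0.05. Both settings were chosen after the data were seen. Samples 1 to 18 and 19 to 40 also differed, mainly in how much of the library long genes took. This difference, called the length tilt below, is the median log2 deviation of the longest 25% of genes minus that of the shortest 25%, and its median was -0.093 in samples 1 to 18 and 0.124 in samples 19 to 40. The number ranges are not a batch named by the study, and 3 of 4 sham-injured samples fell in the second range. In bulk tissue, fewer cells of a type and less RNA per cell cannot be told apart.

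The level of the members per kilobase of exon spanned a wide range. The length used was that of all exons of a gene together. It was 13362 bases for Sptan1, 17492 for Sptbn1, 5782 for Nefm and 5602 for Stmn2. Their longest transcripts have 8018, 9107, 3680 and 3413 bases, so levels per kilobase depend on this choice. In CPM per kilobase, Stmn1 averaged 303.8, Uchl1 202, Nefl 155, Gap43 98.8, Sptan1 71.8, Ina 68.8, Nefm 66.6, Stmn2 54.0, Sptbn1 45.2 and Nefh 26.3 over 39 samples. Stmn1 exceeded Uchl1 in 38 of 39 samples, Uchl1 exceeded Nefl in 36, Nefl exceeded Gap43 in 38 and Gap43 exceeded Sptan1 in 34. Sptan1, Ina and Nefm formed a run of near equals: Sptan1 lay above Ina in 22 of 39 samples and Ina above Nefm in 22, so their order did not hold beyond the spread. Below them, Nefm exceeded Stmn2 in 36, Stmn2 exceeded Sptbn1 in 31 and Sptbn1 exceeded Nefh in 38.

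The filament subunits were not present in equal amounts as RNA. By CPM, Nefm was 0.733 ± 0.0811 (SD, n = 39) of Nefl, Ina 0.429 ± 0.0617 and Nefh 0.201 ± 0.0261. Per kilobase of exon the same ratios were 0.428 for Nefm, 0.448 for Ina and 0.170 for Nefh. These use all exons of a gene together, 5782 bases for Nefm, whose longest transcript has 3680. Nefl, Nefh and Ina have 1 transcript each, so the nearness of Nefm and Ina depends on that length. The heavy chain was the rarest of the filament RNAs and the light chain the most abundant on both scales. The spread over samples, as the coefficient of variation of CPM, was narrowest for Stmn2 (6.26%) and Ina (8.30%), intermediate for Nefl (10.2%), Uchl1 (11.7%), Nefh (13.2%), Gap43 (14.8%) and Nefm (15.2%), and widest for Sptbn1 (17.4%), Sptan1 (17.6%) and Stmn1 (22.2%). The lowest of the 12 group means fell at 5xCHI 4 h for all 4 filament subunits, at 5xCHI 24 h for Stmn1, Stmn2, Uchl1 and Gap43, and at 1xCHI 30 min for the spectrins.

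The first question was whether a single injury moved these RNAs. Nefh, the heavy chain whose long tail carries much of the phosphorylation of the filament, was lower after 1xCHI. Sham-injured mice had 118, 134, 111 and 116 CPM, whereas after 1xCHI the values were 85.2, 117 and 103 CPM at 30 min, 97.02, 77.1 and 102 CPM at 4 h and 126, 86.2, 108 and 98.3 CPM at 24 h. Of the 10 injured mice, 2 lay above the sham-injured median and inside the sham-injured range, and the other 8 lay below every sham-injured mouse. The log2 difference was -0.26 (SE 0.105, unadjusted p = 0.0179, adjusted p = 0.245, edgeR), and 6.33% of all genes tested had an unadjusted p under 0.05 in the lower direction. In samples 19 to 40, with 4 injured and 3 sham-injured mice, the 2 groups did not overlap (98.3 to 107.6 against 111 to 134 CPM, a log2 difference of -0.22), as was so in the lower direction for 2.94% of all genes, and samples 1 to 18 hold 1 sham-injured mouse only. Without sham-injured sample 20, the difference was -0.20 (unadjusted p = 0.0935).

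The other filament subunits differed by less. Nefl averaged 514 ± 56.6 CPM (SD, n = 10) after 1xCHI against 557 ± 28.2 CPM (n = 4) in sham-injured mice, a log2 difference of -0.12 (SE 0.084, adjusted p = 0.426). Nefm averaged 359 ± 51.8 CPM against 407 ± 24.9 CPM, a log2 difference of -0.18 (SE 0.128, adjusted p = 0.411). Ina, the subunit that appears early in neuronal development, was at 234 ± 26.1 CPM against 229 ± 15.0 CPM (log2 difference 0.03, SE 0.070, adjusted p = 0.818). All 3 sets of values overlapped those of sham-injured mice. Of the others, Stmn1 was at 0.33 (SE 0.162, adjusted p = 0.292), Uchl1 at 0.18 (SE 0.095, adjusted p = 0.318), Stmn2 at 0.02 (SE 0.052, adjusted p = 0.838) and Sptbn1 at -0.26 (SE 0.147, adjusted p = 0.330) on the log2 scale. With the trend of gene length removed from each sample, Nefh was at -0.27 (unadjusted p = 0.0139), Stmn1 at 0.17 (unadjusted p = 0.208), Uchl1 at 0 (unadjusted p = 0.993) and Sptbn1 at -0.12 (unadjusted p = 0.162). Interneuron markers also lay low after 1xCHI: the 8 of them summed to 835 to 1150 CPM against 1010 to 1250 CPM in sham-injured mice, with 4 of 8 lower and 1 of 8 higher at an unadjusted p under 0.05. Their part in the values of Nefh was not tested.

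Gap43, which marks growing axon tips, and alpha-spectrin Sptan1 were the other members past an unadjusted p of 0.05 after 1xCHI, in opposite directions. Gap43 was 162, 149, 133 and 125 CPM in sham-injured mice and ran from 129.6 to 213 CPM (median 166) after 1xCHI, with 9 of 10 mice above the sham-injured median. The log2 difference was 0.24 (SE 0.112, unadjusted p = 0.0397, adjusted p = 0.279), where 10.8% of all genes had an unadjusted p under 0.05 in the higher direction. Sptan1 was 1009, 981, 1250 and 1156 CPM in sham-injured mice and 733 to 1235 CPM (median 803) after 1xCHI, with 1 of 10 mice above the sham-injured median (log2 difference -0.31, SE 0.145, unadjusted p = 0.0414, adjusted p = 0.281). Within samples 19 to 40 the differences were 0.07 for Gap43 and -0.09 for Sptan1. With the trend of gene length removed from each sample, they were 0.05 (unadjusted p = 0.599) and -0.18 (unadjusted p = 0.052). Without the 6 samples high in neighbouring tissue, Gap43 differed by 0.20 (unadjusted p = 0.129) and Sptan1 by -0.29 (unadjusted p = 0.109). Without sample 39, a sham-injured mouse, Gap43 differed by 0.18 (unadjusted p = 0.155), and without sham-injured sample 35 Sptan1 differed by -0.24 (unadjusted p = 0.149).

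At 30 min after 1xCHI, 2 growth genes had their highest group means. Stmn1, a stathmin that binds free tubulin, was 993, 855 and 452 CPM at this time against 675, 611, 452 and 472 CPM in sham-injured mice. The first 2 of these injured mice lay above the whole sham-injured range and the other lay at its lower end. The log2 difference was 0.47 (SE 0.209, unadjusted p = 0.0310, adjusted p = 0.219). Gap43 was 213, 187 and 145 CPM in the same mice, a log2 difference of 0.35 (SE 0.129, unadjusted p = 0.0100, adjusted p = 0.174), with the third mouse inside the sham-injured range. In this comparison 13.3% of all genes had an unadjusted p under 0.05 in the higher direction. The high pair, samples 13 and 14, had length tilts toward short genes (-0.431 and -0.271) and the highest sums of the 5 blood markers (513 and 503 CPM, against a median of 181 CPM over 39 samples). The part of these in the result was not tested. Without sample 13 the difference was 0.24 for Stmn1 (unadjusted p = 0.291) and 0.23 for Gap43 (unadjusted p = 0.118), and with the length trend removed it was 0.28 (unadjusted p = 0.120) and 0.12 (unadjusted p = 0.246). Without the 6 samples high in neighbouring tissue, that of Stmn1 was 0.40 (unadjusted p = 0.0839). With the 2 ranges of sample numbers as a covariate in edgeR, the difference was 0.327 for Stmn1 (unadjusted p = 0.095) and 0.272 for Gap43 (unadjusted p = 0.0245). Without sample 27, the low mouse, Uchl1, Stmn1 and Gap43 passed an adjusted p of 0.05, as did 3665 genes in all.

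Group means of the neurofilament triplet were lowest at 4 h, after the first and after the fifth injury. At 4 h after 1xCHI, Nefh was 97.02, 77.1 and 102 CPM, below all 4 sham-injured mice (111 to 134 CPM), with a log2 difference of -0.38 (SE 0.129, unadjusted p = 0.00592, adjusted p = 0.338). Nefm was 305, 260.3 and 404 CPM against 403, 384, 400.1 and 442 CPM, with 2 of 3 mice below the sham-injured range and the other inside it (log2 difference -0.34, SE 0.150, unadjusted p = 0.0333, adjusted p = 0.441). Of all genes, 3.57% had an unadjusted p under 0.05 in the lower direction, and 2.38% lay below every sham-injured mouse in all 3 mice. Sample 16 was the lowest for both, and without the 6 samples high in neighbouring tissue Nefm differed by -0.25 (unadjusted p = 0.189). Without sample 16 the differences were -0.27 for Nefh (unadjusted p = 0.0638) and -0.20 for Nefm (unadjusted p = 0.223). With the 2 ranges of sample numbers as a covariate in edgeR, they were -0.367 for Nefh (unadjusted p = 0.00863) and -0.273 for Nefm (unadjusted p = 0.0555). The 8 pan-neuronal markers summed to 7270 to 8040 CPM at this time and 8230 to 8360 CPM in sham-injured mice, and the 8 interneuron markers to 835 to 1130 CPM and 1010 to 1250 CPM. None of the former and 1 of the latter were lower at an unadjusted p under 0.05, and the part of these cells in the result was not tested.

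At 4 h after 5xCHI, the comparison was with the mice collected 24 h after 4xCHI, the state just before the last injury. The mice at 4 h had also had the anaesthesia of the fifth injury. Sham-injured mice were not divided by time, so injury and anaesthesia cannot be told apart here. Nefl was 498, 406 and 474 CPM against 607, 579.7 and 541 CPM, Nefm 315, 223 and 351 against 453, 396 and 370.2 CPM, and Nefh 88.4, 82.1 and 85.02 against 122, 127 and 91.6 CPM. For all 3 subunits every mouse at 4 h lay below every mouse of the earlier group, as was so for 5.96% of all genes. The log2 differences were -0.33 for Nefl (SE 0.123, unadjusted p = 0.0124, adjusted p = 0.914), -0.46 for Nefm (SE 0.160, unadjusted p = 0.00748, adjusted p = 0.911) and -0.42 for Nefh (SE 0.137, unadjusted p = 0.00476, adjusted p = 0.893). In this comparison 1.83% of all genes had an unadjusted p under 0.05 in the lower direction and 0% passed an adjusted p of 0.05. Ina, the fourth subunit, was at 208, 227 and 197 CPM against 225, 239 and 188 CPM, and its groups overlapped.

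Sample 10 was the lowest of the 3 mice at 5xCHI 4 h for each of Nefl, Nefm and Nefh, and it is one of the 2 samples with high microglia and low pan-neuronal markers. With samples 10 and 11 left out, the difference from 4xCHI was -0.25 for Nefl (unadjusted p = 0.0351), -0.29 for Nefm (unadjusted p = 0.0711) and -0.39 for Nefh (unadjusted p = 0.0190). The pan-neuronal sum was 8280 and 8530 CPM in the other 2 mice at 4 h and 8060 to 8490 CPM after 4xCHI. The 8 markers of parvalbumin and other interneurons summed to 795 to 988 CPM at 4 h and 1020 to 1110 CPM after 4xCHI, with 0 of 8 lower at an unadjusted p under 0.05 (edgeR), and 4 of 8 microglia markers were higher at that level. Sample 32 at 4 h had a striatal sum of 654 CPM and a choroid plexus sum of 1300 CPM, against 161 and 167 CPM and at most 31.1 CPM in the other 2 mice, and after 4xCHI the sums were 162 to 249 CPM and 9.93 to 861 CPM. Without the 6 samples high in neighbouring tissue, which leaves 2 mice in each group, the differences were -0.31 for Nefl (unadjusted p = 0.0734), -0.51 for Nefm (unadjusted p = 0.0180) and -0.36 for Nefh (unadjusted p = 0.0613). The part of these cells in the result was not tested. When the 2 ranges of sample numbers entered the fit as a covariate, the differences were -0.19 for Nefl (unadjusted p = 0.0652), -0.35 for Nefm (unadjusted p = 0.0284) and -0.39 for Nefh (unadjusted p = 0.0102).

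The 4 h values were also set against the other times after the same number of injuries, as a description. After 5xCHI, Nefh was 82.1 to 88.4 CPM at 4 h and 101 to 117 CPM at 30 min and 24 h, with no overlap. This was so in the same direction for 0.466% of all genes. The log2 difference was -0.33 in samples 1 to 18 and -0.38 in samples 19 to 40, where sample 32 was the only mouse at 4 h. Nefm differed by -0.48 in the same way, with -0.55 and -0.29 in the 2 ranges of sample numbers, and Nefl by -0.12. Without samples 10 and 11, which leaves 2 mice at 4 h, the differences were -0.34 for Nefh, -0.35 for Nefm and -0.11 for Nefl. After 1xCHI, the difference was -0.23 for Nefm and -0.17 for Nefh. In samples 19 to 40, where sample 36 was the only mouse at 4 h, it was 0.05 and -0.02. After 3xCHI, with 2 mice at 4 h, it was -0.04 for Nefm and 0.09 for Nefh. The ratio of Nefm to Nefl, by CPM, averaged 0.628 ± 0.0706 (SD, n = 3) at 1xCHI 4 h and 0.641 ± 0.0966 (n = 3) at 5xCHI 4 h, against 0.733 ± 0.0618 (n = 4) in sham-injured mice and 0.705 ± 0.0365 (n = 3) after 4xCHI. Means of the remaining groups ran from 0.702 at 3xCHI 24 h to 0.814 at 30 min and 24 h after 5xCHI, and the mice at 5xCHI 4 h, from 0.549 to 0.741, overlapped those of sham-injured mice and of 4xCHI.

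The test over the 3 time points after 1xCHI, 3xCHI and 5xCHI gave Nefm an unadjusted p of 0.0425 and an adjusted p of 1.00 (edgeR), and no other member an unadjusted p under 0.05, where 4.45% of all genes reached that and 0.0394% passed an adjusted p of 0.05. The unadjusted p of Nefm was 0.124 without samples 10 and 11 and 0.0564 without the 6 samples high in neighbouring tissue. Whether the course after 5xCHI differed from that after 1xCHI was tested as an interaction. No member had an unadjusted p under 0.05 (lowest 0.102, for Ina), where 2.45% of genes did and 0% passed the adjusted threshold. In the plot of neurofilament values the 4 h groups of Nefm and Nefh sit low after 1xCHI and 5xCHI, and after 3xCHI they do not.

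**Figure D1:**
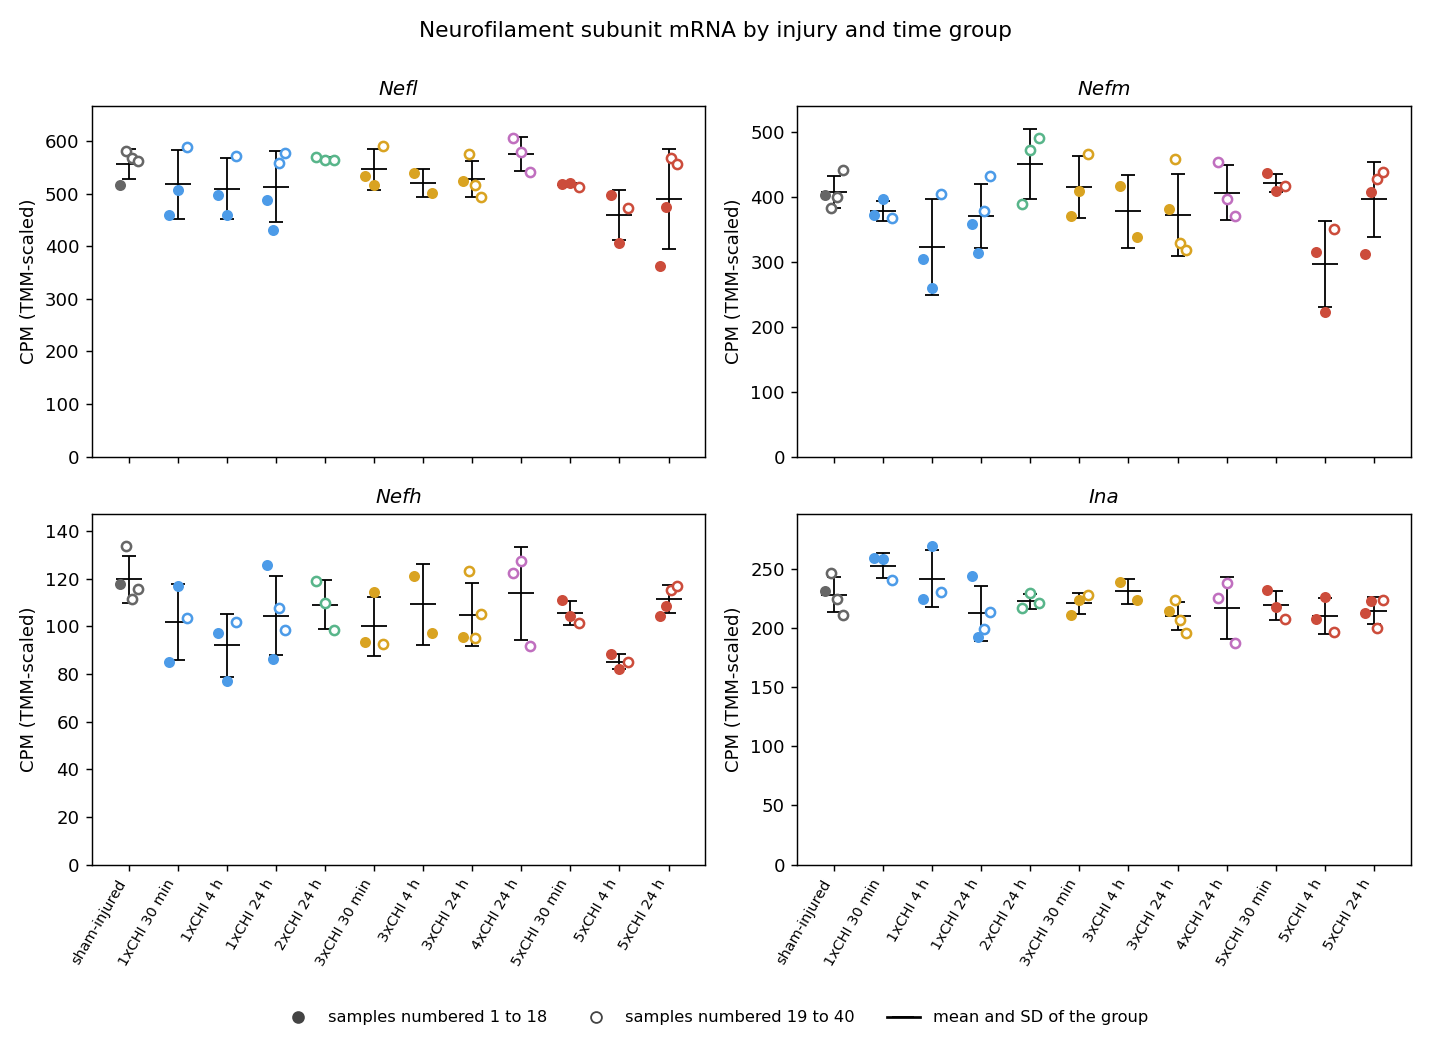
CPM (TMM-scaled, y axis) of the 4 neurofilament subunits Nefl, Nefm, Nefh and Ina in the 12 groups (x axis). Points are mice, filled for samples 1 to 18 and open for samples 19 to 40, and the bar and whiskers are the mean and SD of the group. At 4 h after 5xCHI, Nefh lies between 82.1 and 88.4 CPM, below every sham-injured mouse (111 to 134 CPM).

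Over all 3 times, 5xCHI was compared with sham-injured mice. Nefl ran from 362 to 568.3 CPM (median 505) after 5xCHI against 516, 581, 569 and 562 CPM in sham-injured mice, and Nefh from 82.1 to 117 CPM (median 104.5) against 118, 134, 111 and 116 CPM. For each, 1 of 10 mice lay above the sham-injured median. The log2 differences were -0.19 for Nefl (SE 0.084, unadjusted p = 0.0309, adjusted p = 0.399) and -0.24 for Nefh (SE 0.106, unadjusted p = 0.0321, adjusted p = 0.400), where 4.21% of all genes had an unadjusted p under 0.05 in the lower direction. Sample 11 had the lowest Nefl of all 39 samples, 362 CPM, and the lowest length tilt, -0.484. The 8 microglia markers summed to 315 to 935 CPM after 5xCHI and 308 to 354 CPM in sham-injured mice, with 5 of 8 higher at an unadjusted p under 0.05, and their part in the result was not tested. Leaving out samples 10 and 11 gave differences of -0.11 for Nefl (unadjusted p = 0.116) and -0.21 for Nefh (unadjusted p = 0.0647), and without sham-injured sample 20 that of Nefh was -0.18 (unadjusted p = 0.143). Without the 6 samples high in neighbouring tissue, they were -0.18 for Nefl (unadjusted p = 0.0810) and -0.22 for Nefh (unadjusted p = 0.0920). Within samples 19 to 40 they were -0.12 and -0.21. The log2 differences of the other members were -0.13 for Nefm (SE 0.128, adjusted p = 0.653), -0.09 for Ina (SE 0.070, adjusted p = 0.567), 0.03 for Uchl1 (SE 0.094, adjusted p = 0.896), -0.08 for Stmn1 (SE 0.159, adjusted p = 0.826), -0.09 for Stmn2 (SE 0.051, adjusted p = 0.482), -0.06 for Gap43 (SE 0.110, adjusted p = 0.819), -0.24 for Sptan1 (SE 0.146, adjusted p = 0.491) and -0.21 for Sptbn1 (SE 0.147, adjusted p = 0.535).

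The next comparison was 5xCHI against 1xCHI at matched times after the last injury, with 10 mice in each and both ranges of sample numbers filled alike. The 5xCHI mice had also been anaesthetized more often and were collected later after their first injury, so the number of injuries, of anaesthesias and the time since the start cannot be told apart. Here Gap43 and Stmn1 had the lowest p-values among the members, and the log2 difference of the neurofilament triplet ran from -0.07 to 0.04. Gap43 ran from 111 to 177 CPM (median 132) after 5xCHI and from 129.6 to 213 CPM (median 166) after 1xCHI, and 1 of 10 mice after 5xCHI lay above the 1xCHI median. The log2 difference was -0.29 (SE 0.077, 95% confidence interval -0.45 to -0.13, unadjusted p = 0.000729, adjusted p = 0.0566). Stmn1 ran from 386 to 613 CPM (median 525) after 5xCHI and from 440.1 to 993 CPM (median 699) after 1xCHI, with 0 of 10 above the 1xCHI median. The log2 difference was -0.39 (SE 0.125, 95% confidence interval -0.65 to -0.14, unadjusted p = 0.00361, adjusted p = 0.0996). In this comparison 8.27% of all genes had an unadjusted p under 0.05 in the lower direction and 1.02% passed an adjusted p of 0.05.

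Both lay near the adjusted threshold and crossed it in some fits. DESeq2 called Gap43 (adjusted p = 0.0166) and Stmn1 (adjusted p = 0.0490), and edgeR with all 40 samples, with the sample number as a covariate or with the 2 ranges of sample numbers as a covariate called Gap43, where these 3 fits called 1.23%, 1.77% and 2.31% of all genes. Other fits did not call them: the adjusted p was 0.343 for Gap43 and 0.368 for Stmn1 when the fit held the groups compared alone, and it rose to 0.161 for Gap43 (without sample 7) and 0.262 for Stmn1 (without sample 13) with 1 sample left out. The 2 genes differed in how evenly the sample numbers carried the difference. Stmn1 differed by -0.69 in samples 1 to 18, where the groups did not overlap (386 to 583 against 687 to 993 CPM, as was so in the lower direction for 2.36% of all genes), and by 0.11 in samples 19 to 40. In the same ranges Gap43 differed by -0.43 and -0.09. When samples 10 and 11 were left out, they were -0.28 for Gap43 (unadjusted p = 0.00222) and -0.37 for Stmn1 (unadjusted p = 0.00817). Glial markers moved in the same comparison: the 8 microglia markers summed to 315 to 935 CPM after 5xCHI and 260 to 368 CPM after 1xCHI, with 2 of 8 higher at an adjusted p under 0.05, and the 8 astrocyte markers to 3010 to 6110 CPM and 2350 to 4600 CPM, with 5 of 8 higher at an unadjusted p under 0.05. Their part in the result was not tested.

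Ina and Stmn2, the stathmin of growth cones, differed less but within a narrow spread. Ina ran from 197 to 233 CPM (median 216) after 5xCHI and from 193 to 270.3 CPM (median 236) after 1xCHI, with 0 of 10 mice above the 1xCHI median (log2 difference -0.13, SE 0.049, unadjusted p = 0.0126, adjusted p = 0.170). The difference was -0.13 in samples 1 to 18 and -0.09 in samples 19 to 40. Stmn2 ran from 259.8 to 321.2 CPM (median 282) against 289.5 to 332 CPM (median 309), with a log2 difference of -0.10 (SE 0.041, unadjusted p = 0.0196, adjusted p = 0.205). Leaving out samples 10 and 11, that of Stmn2 was -0.07 (unadjusted p = 0.0996) and that of Ina -0.15 (unadjusted p = 0.00825). Uchl1 differed by -0.14 (SE 0.075, unadjusted p = 0.0767, adjusted p = 0.367). Nefl (-0.07), Nefm (0.04), Nefh (0.01), Sptan1 (0.07) and Sptbn1 (0.05) had adjusted p-values of 0.631 to 0.964.

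The difference in Gap43 was widest at 24 h. The 4 mice at 24 h after 5xCHI had 118, 111, 116 and 125 CPM, the 4 at 24 h after 1xCHI 167, 176, 146 and 147 CPM and the 3 at 24 h after 4xCHI 147, 155 and 148 CPM. The 5xCHI values lay below both other groups without overlap, as was so for 2.25% of all genes against 4xCHI and 1.3% against 1xCHI. The highest of them just passed the lowest sham-injured mouse (124.5 CPM), so these groups overlapped. Against 4xCHI at 24 h, the log2 difference was -0.35 (SE 0.130, unadjusted p = 0.0103, adjusted p = 0.639), where 2.24% of all genes had an unadjusted p under 0.05 in the lower direction. Against 1xCHI at 24 h, it was -0.58 in samples 1 to 18 and -0.28 in samples 19 to 40, with 2 mice against 2 in each. Without samples 10 and 11, the difference from 4xCHI was -0.36 (unadjusted p = 0.0185). The 8 markers of layer 5 and long-range projection neurons moved with it: they summed to 294 to 385 CPM at 24 h after 5xCHI, 388 to 495 CPM at 24 h after 1xCHI and 398 to 446 CPM after 4xCHI, with 3 of 8 lower against 4xCHI at an unadjusted p under 0.05. The part of these cells in the result was not tested.

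A straight line over the number of injuries at 24 h, from 1 to 5 with 18 mice, sloped downward for Gap43, Stmn1, Uchl1 and Stmn2 at an unadjusted p under 0.05. Per injury, the log2 slope was -0.09 for Gap43 (SE 0.022, unadjusted p = 0.00054, adjusted p = 0.532), -0.10 for Stmn1 (SE 0.036, unadjusted p = 0.00951), -0.05 for Uchl1 (SE 0.021, unadjusted p = 0.0196) and -0.04 for Stmn2 (SE 0.015, unadjusted p = 0.0146), and the adjusted p of the last 3 was 0.586. Of all genes, 3.28% had a slope below 0 with an unadjusted p under 0.05, and 0% passed an adjusted p of 0.05. Group means of Gap43 were 159, 149, 148, 150.2 and 117.5 CPM from 1 to 5 injuries, so the step at the fifth injury exceeded the others. The slopes without samples 10 and 11 were -0.08 for Gap43 (unadjusted p = 0.00155), -0.08 for Stmn1 (unadjusted p = 0.0263), -0.08 for Uchl1 (unadjusted p = 0.000211) and -0.03 for Stmn2 (unadjusted p = 0.0370). The neurofilaments and spectrins had slopes between -0.01 and 0.04 (adjusted p = 0.867 to 1.00).

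**Figure D2:**
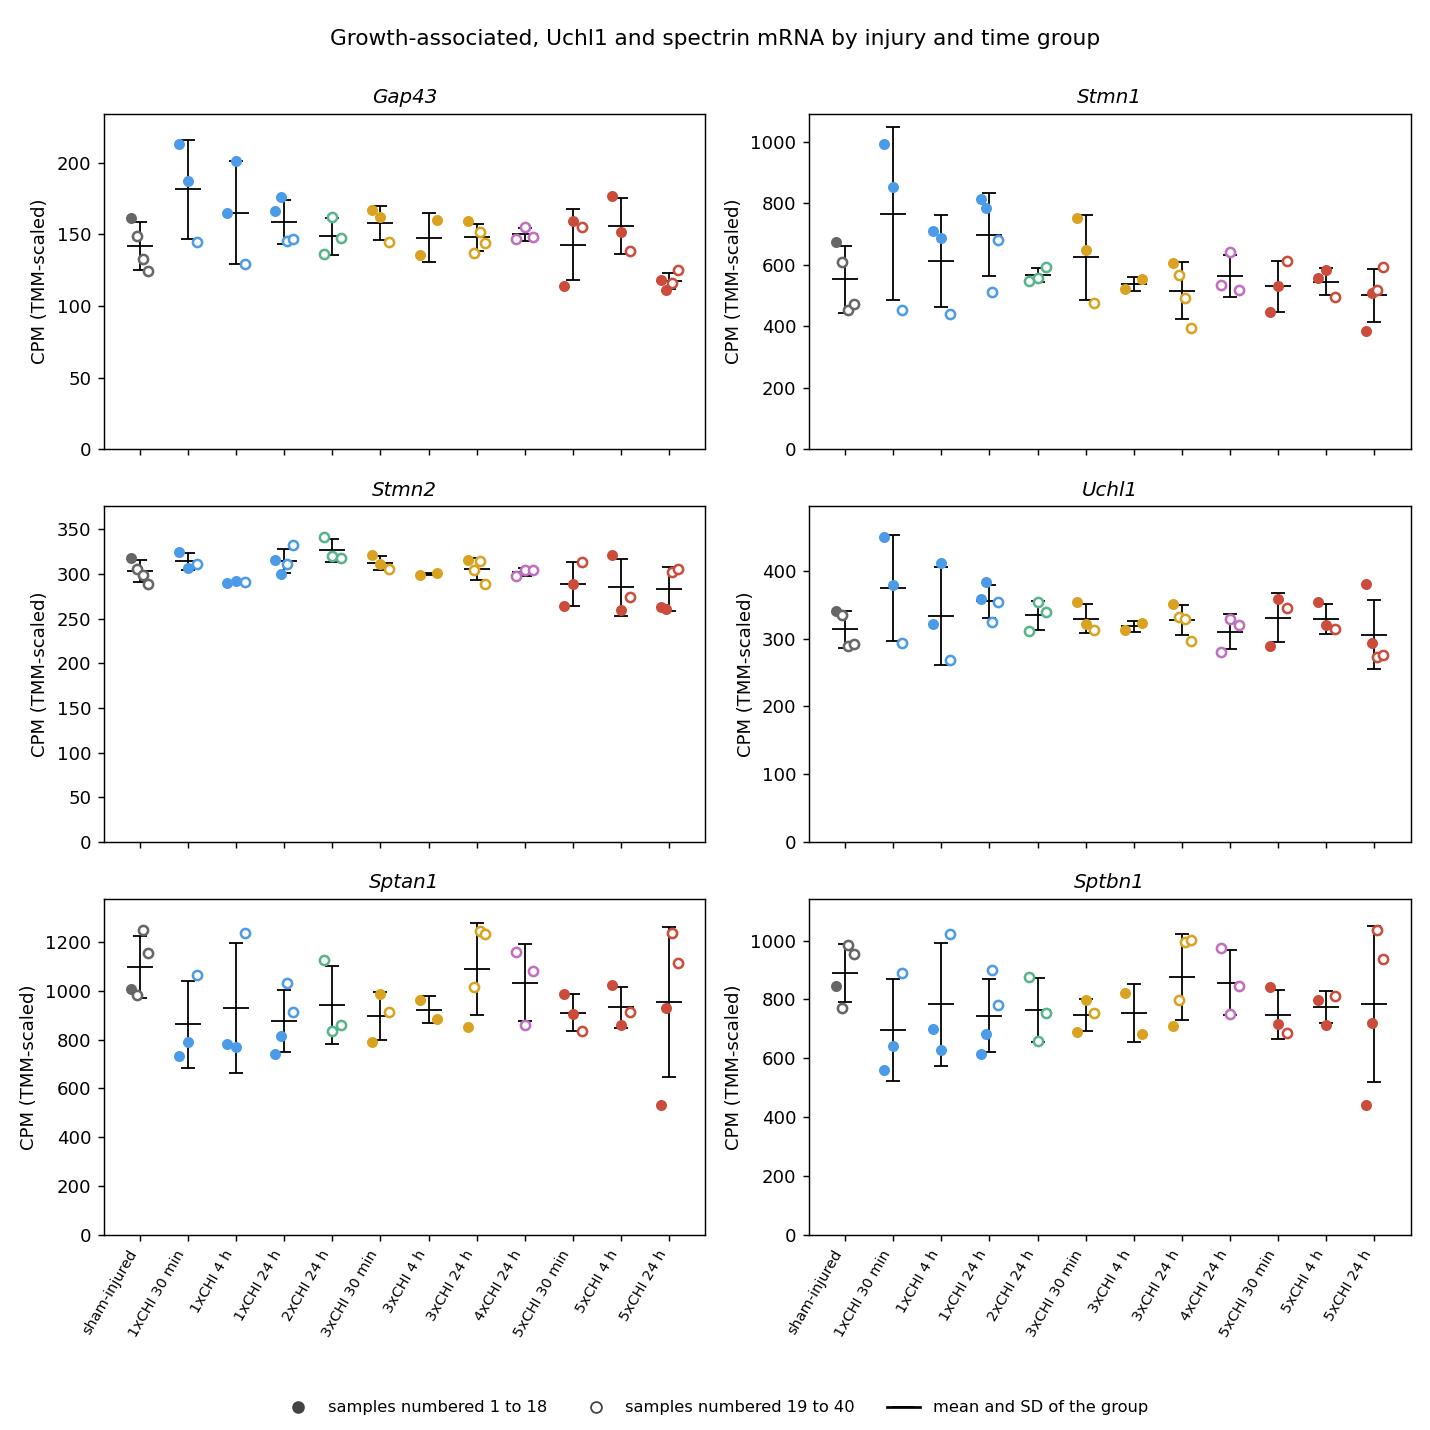
CPM (TMM-scaled, y axis) of Uchl1, Stmn1, Stmn2, Gap43, Sptan1 and Sptbn1 in the 12 groups (x axis). Points are mice, filled for samples 1 to 18 and open for samples 19 to 40, and the bar and whiskers are the mean and SD of the group. Gap43 at 24 h after 5xCHI lies between 111 and 125 CPM, below the 24 h groups of every other injury number, as was so for 0.0788% of all genes.

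The test for any difference among the 12 groups gave Gap43 an unadjusted p of 0.0145 (adjusted p = 0.571) and Nefm 0.0454 (adjusted p = 0.674), where 7.35% of all genes had an unadjusted p under 0.05 and 0.0197% passed an adjusted p of 0.05. The unadjusted p without samples 10 and 11 was 0.0409 for Gap43 and 0.0616 for Nefm, and 0.0227 and 0.0947 without the 6 samples high in neighbouring tissue. No member had an unadjusted p under 0.05 after 2xCHI, 3xCHI or 4xCHI against sham-injured, where 4.6%, 3.72% and 1.73% of all genes did. The 95% confidence intervals show what these small groups could resolve. After 4xCHI, that of Gap43 ran from -0.21 to 0.37, that of Nefl from -0.17 to 0.27 and that of Stmn1 from -0.39 to 0.45 on the log2 scale. No member had an unadjusted p under 0.05 either at 24 h after 1xCHI (5.89% of all genes), after 3xCHI against 2xCHI (1.87% at 30 min, 1.87% at 4 h and 4.85% at 24 h) and at 30 min after 5xCHI against 4xCHI (6.12%). In each of these comparisons 0% of the genes passed an adjusted p of 0.05, as in all comparisons with sham-injured mice and with the preceding injury.

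**Figure D3:**
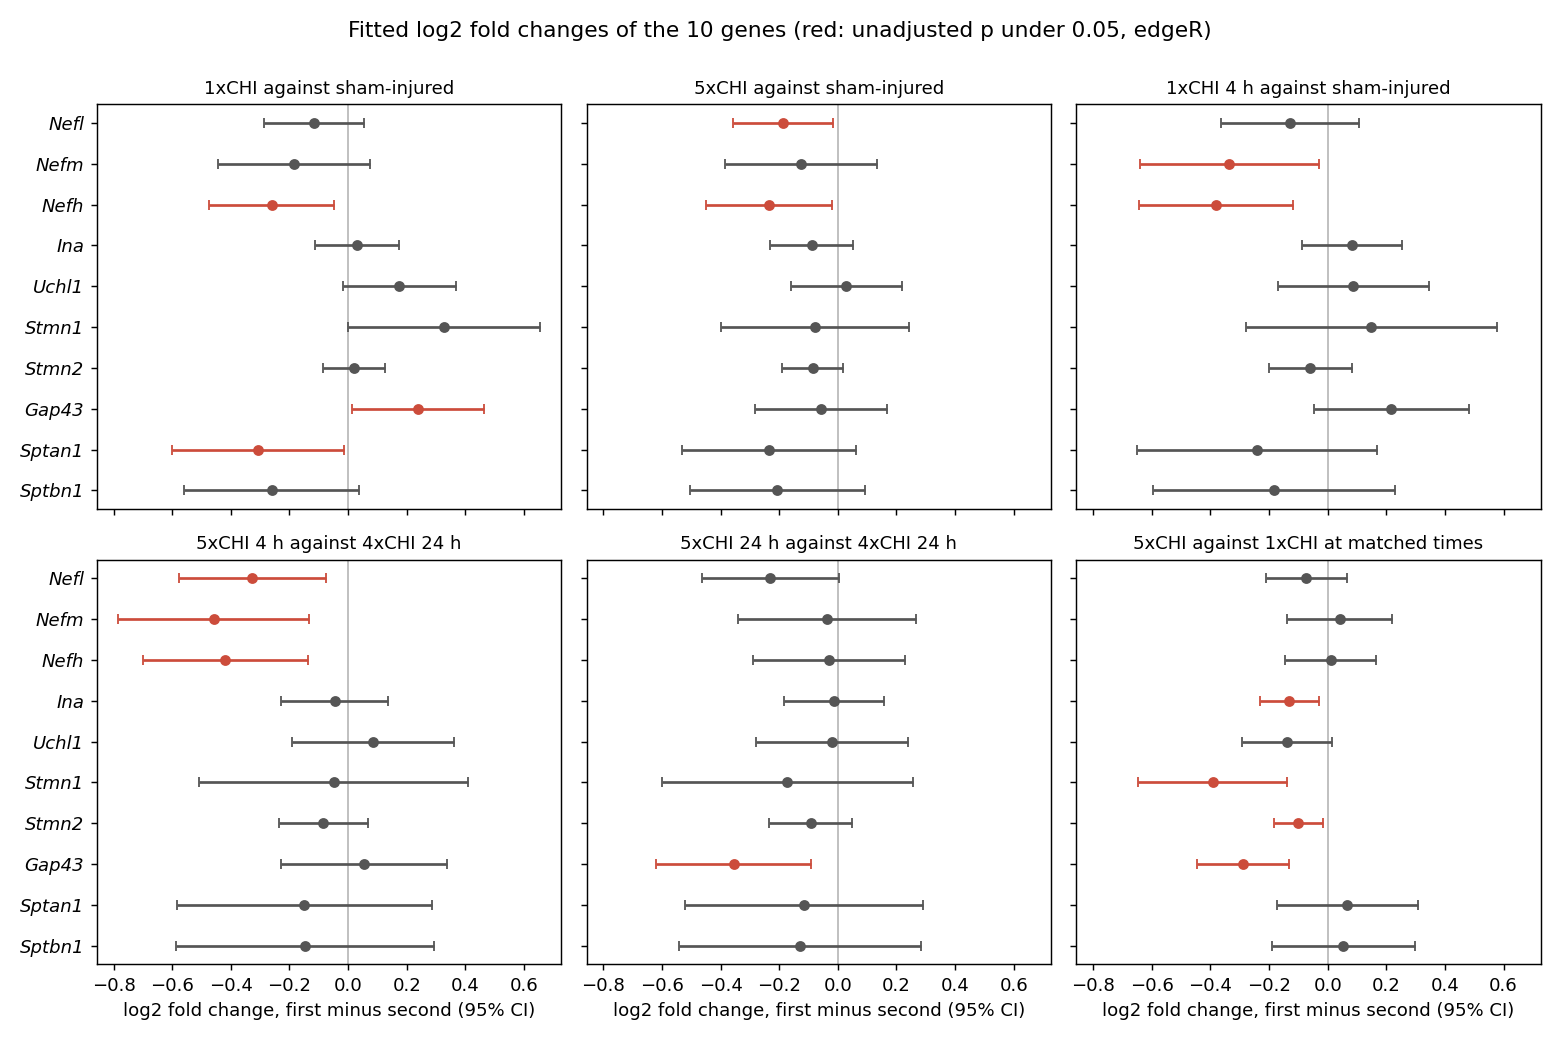
Log2 difference (x axis) of each of the 10 members (y axis) with its 95% confidence interval in 6 comparisons, red where the unadjusted p was under 0.05. The neurofilament triplet lies left of 0 at 4 h after 5xCHI against 4xCHI (-0.33, -0.46 and -0.42), and Gap43 and Stmn1 lie left of 0 for 5xCHI against 1xCHI (-0.29 and -0.39).

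The spectrins varied together. Sptan1 and Sptbn1, whose proteins join end to end as the tetramers of the membrane skeleton, had Pearson's r of 0.974 and Spearman's rho of 0.965 for log2 CPM over 39 samples (permutation p = 1e-05 for both, the smallest that 100000 permutations can give, adjusted over 45 pairs 6.43e-05 for r). The r was 0.963 in samples 1 to 18, 0.958 in samples 19 to 40, 0.963 without the 2 samples farthest from the median and 0.973 with group means removed. Sample 11 had the lowest value of both, 532 and 440 CPM, and after 5xCHI at 24 h the other 3 mice had 929.5 to 1237 and 718.5 to 1037 CPM. The length tilt of sample 11 was -0.484, the lowest of all 39. Over the groups neither gene had an adjusted p below 0.281.

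Both spectrins followed the length tilt of the library. Their exons span 13362 and 17492 bases, longer than 96.1% and 98.6% of the genes tested, and their r with the tilt was 0.953 and 0.957 (permutation p = 1e-05 for each, adjusted over 10 members 3.33e-05). The 3 shortest members ran the other way: r was -0.822 for Uchl1, -0.605 for Stmn1 and -0.538 for Gap43, whose exons lie at the 10.5, 14.1 and 9.16 percentiles of length. Nefl, at the 36.1 percentile of length, rose with the tilt (r = 0.589, permutation p = 0.00015, adjusted p = 0.0003), although r was 0.543 in samples 1 to 18 and -0.0691 in samples 19 to 40. Ina, at the 34.1 percentile, had r of -0.350 (permutation p = 0.0290, adjusted p = 0.0414). For Nefm (0.261), Nefh (0.262) and Stmn2 (-0.00401) the adjusted p was 0.121, 0.121 and 0.981. Within samples 1 to 18 and 19 to 40, r was 0.926 and 0.931 for Sptan1, 0.925 and 0.943 for Sptbn1, -0.741 and -0.791 for Uchl1, -0.348 and -0.723 for Stmn1 and -0.332 and -0.639 for Gap43. Spearman's rho was 0.964, 0.963 and -0.798 for Sptan1, Sptbn1 and Uchl1 (permutation p = 1e-05 for each), and r without the 2 samples farthest from the median tilt was 0.953, 0.950 and -0.783. The 2 spectrins are themselves among the long genes that define the tilt, and Uchl1, Stmn1 and Gap43 among the short ones. The tilt ran from 0.077 to 0.267 in sham-injured mice and from -0.431 to 0.322 after 1xCHI, and after 5xCHI from -0.484 to 0.253. With the length trend removed, Gap43 differed by -0.22 (unadjusted p = 0.00109) and Stmn1 by -0.32 (unadjusted p = 0.00418) between 5xCHI and 1xCHI.

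Among the filament subunits, Nefl and Nefm went together over samples (r = 0.723, rho = 0.647, permutation p = 1e-05 and 3e-05, adjusted p = 6.43e-05 and 0.000193), with r of 0.668 without the 2 farthest samples and 0.658 and 0.605 in the 2 ranges of sample numbers. Nefm and Nefh had r of 0.578 and rho of 0.500 (permutation p = 0.0001 and 0.0014, adjusted p = 0.00045 and 0.00441), with r of 0.417 without the 2 farthest samples, 0.726 in samples 1 to 18 and 0.244 in samples 19 to 40. Over all 39 samples, Ina had r of 0.0412 with Nefl, 0.0184 with Nefm and 0.196 with Nefh. These were 0.116, 0.0324 and 0.104 in samples 1 to 18 and 0.679, 0.386 and 0.519 in samples 19 to 40. Gap43 went with Uchl1 (r = 0.766, rho = 0.754, 0.664 without the 2 farthest samples, 0.724 and 0.764 in the 2 ranges) and with Stmn1 (r = 0.750, rho = 0.781, 0.663, 0.829 and 0.311 in the same order), all with a permutation p of 1e-05 and an adjusted p of 6.43e-05 for r. Of the 45 pairs, 22 had an adjusted permutation p under 0.05 for r, and 28 did without samples 10 and 11 and 19 without the 6 samples high in neighbouring tissue. The matrix of correlations shows the spectrin pair and the triplet Nefl, Nefm and Nefh with r above 0 among themselves, and Uchl1, Stmn1 and Gap43 likewise.

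**Figure D4:**
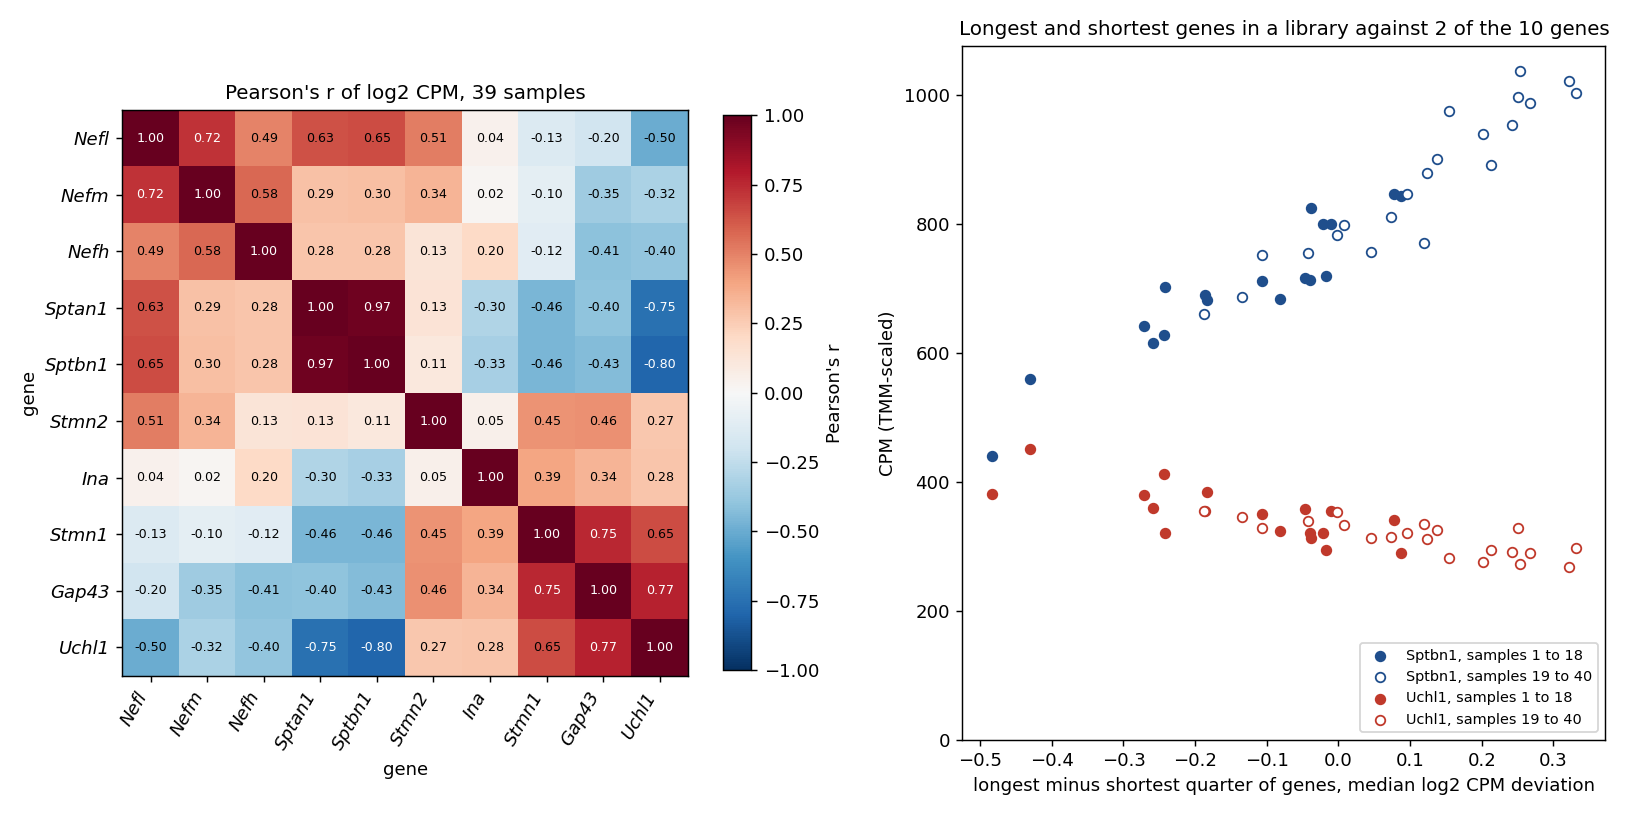
Left, Pearson's r of log2 CPM between the 10 members over 39 samples (both axes are genes, colour is r). Right, CPM of Sptbn1 and Uchl1 (y axis) against the length tilt of each sample (x axis, log2), filled for samples 1 to 18 and open for samples 19 to 40. Sptbn1 climbs with the tilt (r = 0.957) and Uchl1 declines with it (r = -0.822).

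The genes whose log2 CPM followed each member most closely over the 39 samples were taken from all genes tested, and the r-values are a description of libraries that share depth and length tilt. Those of Nefl were Rgs4 (0.857) and Syt12 (0.836), with r of 0.897 and 0.913 in samples 1 to 18 and 0.369 and 0.306 in samples 19 to 40, and 0.728 and 0.700 without samples 10 and 11. Those of Nefm were Klc2 (0.799), Ly6e (0.778) and Cbln4 (0.771, with 0.837 and 0.426 in the 2 ranges). Nefh was followed by Gm26673 (0.816) and by Vamp1 (0.786) and Syt2 (0.771), which encode synaptic vesicle proteins of fast-spiking neurons. Gap43 was followed by Syt5 (0.905), Kcnmb4 (0.858) and Ndn (0.858), Stmn1 by Hmgn2 (0.865), Lrrc73 (0.842) and Bex1 (0.834), and Stmn2 by Rab1a (0.809), Pfn2 (0.787) and Snap47 (0.772). For Uchl1 they were Flot1 (0.888), Eno1 (0.883) and Atp6v0c (0.883), and for Ina Cyp11a1 (0.729), 2900011O08Rik (0.692) and Epha10 (0.670). Sptan1 was followed by Arhgap35 (0.976), Herc2 (0.975) and Sptbn1 (0.974), and Sptbn1 by Gabrb2 (0.978), Faxc (0.976) and Stxbp5l (0.975).

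Each member was also set against the summed markers of each cell type (n = 39, as a description of libraries that share depth and length tilt), and the r farthest from 0 is given first. It was with the pan-neuronal sum for Nefl (0.720), Nefm (0.678) and Stmn2 (0.743), which without samples 10 and 11 had r of 0.435, 0.524 and 0.629 (n = 37) with it, and Nefl had 0.791 in samples 1 to 18 and 0.135 in samples 19 to 40. It was with the interneuron sum for Nefh (0.610), Uchl1 (-0.683), Sptan1 (0.751) and Sptbn1 (0.738). It was with the astrocyte sum for Stmn1 (-0.763) and Gap43 (-0.673), and with the thalamic sum for Ina (0.467). Gap43 further had r of -0.605 with the interneuron sum and 0.601 with that of layer 5 and long-range projection neurons. The r of Nefl with the microglia sum was -0.519 over 39 samples and 0.207 without samples 10 and 11, so it rested on these 2. Without them, the r of the other members named here ran from 0.495 to 0.831 in size, with the same sign. The sum with the r farthest from 0 then changed for several members. It was the interneuron sum for Nefl (0.66), Nefm (0.54) and Gap43 (-0.756). For Sptan1 (0.83), Sptbn1 (0.849) and Uchl1 (-0.81) it was the astrocyte sum. Over 39 samples their r with the astrocyte sum was 0.29, 0.308 and -0.544.

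Other genes of the axon were followed in lists. There were 8 lists with 114 genes tested, and a list is given by its counts and median, beside the median over all genes. For 1xCHI against sham-injured, 0 listed genes passed an adjusted p of 0.05 in edgeR and 0 in DESeq2. At an unadjusted p under 0.05, the axonal transport motors had 0 higher and 7 lower of 17 tested, with a median log2 difference of -0.19 against 0.01 over all genes, where 10.8% of all genes were higher and 6.33% lower at that level. Among them were Dctn1 of the dynactin complex (-0.20, SE 0.069, adjusted p = 0.225) and the kinesin Kif1a (-0.26, SE 0.096, adjusted p = 0.233). The spectrin, ankyrin and adducin list had 1 higher and 5 lower of 15 (median -0.20), led by Ank1 (-0.39, SE 0.142, adjusted p = 0.232) and Sptb (-0.46, SE 0.190, adjusted p = 0.249), with Sptbn5 higher (0.46, SE 0.169, adjusted p = 0.232). The other axonal cytoskeleton genes had 0 higher and 4 lower of 17 (median 0.04), led by Map1a (-0.53, SE 0.220, adjusted p = 0.252) and Dst (-0.32, SE 0.143, adjusted p = 0.264). Ubiquitin C-terminal hydrolases and ubiquitin genes had 4 higher and 1 lower of 9, with Uchl3, a relative of Uchl1, at 0.29 (SE 0.086, adjusted p = 0.216), Rps27a at 0.44 (SE 0.166, adjusted p = 0.238) and Uba1 at -0.18 (SE 0.086, adjusted p = 0.283).

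The growth-associated list had 2 higher and 1 lower of 11 after 1xCHI, where 10.8% of all genes were higher and 6.33% lower, with the growth cone protein Basp1 at 0.25 (SE 0.087, adjusted p = 0.224), Marcksl1 at 0.42 (SE 0.176, adjusted p = 0.253) and Cntn2 at -0.17 (SE 0.067, adjusted p = 0.243). Genes of axon degeneration and calpain had 0 higher and 4 lower of 20, with Map3k13 at -0.57 (SE 0.196, adjusted p = 0.224) and Mapk8ip3 at -0.16 (SE 0.070, adjusted p = 0.263). The axon injury and regeneration genes had 0 in either direction of 13, and the other fluid markers of brain injury 1 higher of 12, Park7 (0.29, SE 0.124, adjusted p = 0.254). After 2xCHI, 3xCHI and 4xCHI none of these 8 lists had more than 2 genes past an unadjusted p of 0.05 in either direction, where 4.6%, 3.72% and 1.73% of all genes passed it. The length tilt moved with the 1xCHI comparison, with a median of 0.181 in sham-injured mice and -0.213 after 1xCHI. With the length trend removed, the motors had 0 higher and 7 lower of 17 (median -0.14), the spectrin list 1 higher and 2 lower of 15 (median -0.05), the axonal cytoskeleton 2 higher and 1 lower of 17, the degeneration genes 0 higher and 2 lower of 20, the ubiquitin genes 2 higher and 1 lower of 9 and the growth-associated list 0 in either direction of 11, where 7.63% of all genes were higher and 5% lower (median 0.007). The part of the tilt in these counts was otherwise not tested.

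After 5xCHI against sham-injured, 0 listed genes passed an adjusted p of 0.05 in edgeR and 0 in DESeq2. The axonal cytoskeleton list had 1 higher and 5 lower of 17 at an unadjusted p under 0.05 (median -0.16, against 0.01 over all genes), where 7.71% of all genes were higher and 4.21% lower at that level, with the glial filament gene Vim at 2.22 (SE 0.639, adjusted p = 0.363), the neuronal tubulin Tubb3 at -0.32 (SE 0.085, adjusted p = 0.363) and Tuba4a at -0.26 (SE 0.088, adjusted p = 0.364). The regeneration list had 4 higher of 13 (median 0.20), with Cd44 at 2.13 (SE 0.663, adjusted p = 0.363) and Lgals1 at 1.19 (SE 0.395, adjusted p = 0.363), and the fluid markers had 2 higher of 12, Gfap at 2.03 (SE 0.617, adjusted p = 0.363) and S100b at 0.29 (SE 0.139, adjusted p = 0.414). The spectrin list had 0 higher and 2 lower of 15, with Epb41l3 at -0.22 (SE 0.068, adjusted p = 0.363) and Nfasc at -0.13 (SE 0.061, adjusted p = 0.406). The growth-associated list had 1 lower of 11, Ncam1 (-0.12, SE 0.059, adjusted p = 0.414). Degeneration genes had 2 lower of 20, Nampt (-0.15, SE 0.061, adjusted p = 0.384) and Mapk8 (-0.22, SE 0.099, adjusted p = 0.401), ubiquitin genes 1 lower of 9, Usp14 (-0.18, SE 0.081, adjusted p = 0.398), and the motors 0 in either direction of 17. The glial markers moved with the same comparison, with 5 of 8 microglia and 2 of 8 astrocyte markers higher at an unadjusted p under 0.05, and samples 10 and 11 had the highest sums of both. Without these 2 samples, Vim was at 0.75 (unadjusted p = 0.0260), Cd44 at 0.87 (unadjusted p = 0.0549), Gfap at 0.70 (unadjusted p = 0.0563), Lgals1 at 0.49 (unadjusted p = 0.0469) and S100b at 0.17 (unadjusted p = 0.191), the regeneration list had 1 higher of 13 and the fluid markers 0 of 12, where 3.63% of all genes were higher and 3.14% lower. The part of the glial cells was not tested.

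Between 5xCHI and 1xCHI, 5 listed genes of 114 passed an adjusted p of 0.05 in edgeR, all lower after 5xCHI, where 0.571% of all genes did in that direction. In DESeq2 14 did (3.44% of all genes), 10 lower and 4 higher (Cd44, Eno2, Gfap and Vim). Those called by edgeR in the axonal cytoskeleton list were 3 tubulins of neurons: Tubb2a fell by 0.38 on the log2 scale (adjusted p = 0.0151, 343 to 500.0 CPM after 1xCHI and 245 to 366 CPM after 5xCHI), Tubb3 fell by 0.36 (adjusted p = 0.0197) and Tuba1a fell by 0.26 (adjusted p = 0.0221). Marcksl1, a growth-associated actin regulator, fell by 0.53 (adjusted p = 0.0355), and Uchl3 fell by 0.33 (adjusted p = 0.0221). Each was also lower in samples 19 to 40 alone, by less than in samples 1 to 18: the log2 differences were -0.54 and -0.15 for Tubb2a, -0.54 and -0.09 for Tubb3, -0.40 and -0.04 for Tuba1a, -0.73 and -0.07 for Marcksl1 and -0.44 and -0.18 for Uchl3. Of 20 refits that left out 1 mouse each, 19 called Tubb2a, 16 Tubb3, 14 Tuba1a and Uchl3, and 9 Marcksl1. Tuba1a, past the 2 genes a list gives by rule, is named because it was called. The microglia markers, with 2 of 8 higher past an adjusted p of 0.05 and 7 of 8 at an unadjusted p under 0.05, moved in the same comparison, and their part in the result was not tested. Without samples 10 and 11, Tubb2a (-0.39, adjusted p = 0.0272) and Uchl3 (-0.32, adjusted p = 0.0438) passed, and Tubb3 (-0.31), Tuba1a (-0.26) and Marcksl1 (-0.60) had an adjusted p of 0.0514. Without the 6 samples high in neighbouring tissue, Marcksl1 (-0.53, adjusted p = 0.0578) did not pass and the other 4 did. In that fit 9 listed genes were called, 7 lower and 2 higher (Gfap and Stat3), where 380 genes were called in all. Tubb2a had an adjusted p of 0.0697 without sample 7 and 0.266 when the fit held the groups compared alone, and the other 4 missed the threshold in both as well.

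In the same comparison, 8.16% of all genes were higher and 8.27% lower at an unadjusted p under 0.05, with a median of -0.001. The regeneration list had 5 higher and 0 lower of 13 at that level (median 0.115), with Stat3 at 0.33 (SE 0.102, adjusted p = 0.0938) and Cd44 at 1.38 (SE 0.433, adjusted p = 0.0977), and the growth-associated list 0 higher and 5 lower of 11, among them Ncam1 (-0.14, SE 0.039, adjusted p = 0.0631). The fluid markers had 2 higher and 1 lower of 12, with Gfap at 1.56 (SE 0.437, adjusted p = 0.0687), Eno2 at 0.14 (SE 0.047, adjusted p = 0.117) and the neuronal calcium sensor Vsnl1 at -0.29 (SE 0.076, adjusted p = 0.0526). The spectrin list had 1 in each direction of 15, Add3 (0.24, SE 0.107, adjusted p = 0.264) and Sptbn5 (-0.27, SE 0.127, adjusted p = 0.288). Vim (1.41, SE 0.437, adjusted p = 0.0923) was the 1 axonal cytoskeleton gene past an unadjusted p of 0.05 in the higher direction, Capn5 (0.21, SE 0.082, adjusted p = 0.177) the 1 degeneration gene, Dctn1 (0.15, SE 0.056, adjusted p = 0.157) the 1 motor, and Usp14 (-0.16, SE 0.064, adjusted p = 0.209) the other ubiquitin gene. Without samples 10 and 11, the highest in glial markers, Gfap was at 0.26 (unadjusted p = 0.281), Cd44 at 0.32 (unadjusted p = 0.231), Vim at 0.08 (unadjusted p = 0.731) and Stat3 at 0.20 (unadjusted p = 0.0334). The regeneration list then had 1 higher of 13 (median -0.03), the fluid markers 1 higher and 4 lower of 12, the axonal cytoskeleton list 1 higher and 8 lower of 17, and the motors 5 higher of 17, where 7.96% of all genes were higher and 11% lower (median -0.008).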

How the data were processed

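Per the labels and the study's methods, RNA of 40 cortex samples was sequenced by a company, which aligned the reads to mm10 and counted them per gene. The deposited table holds estimated counts per gene for each sample, of which 4.466% of values were not whole. The aligner's and counter's versions and the use of strand are not given in the sources used here. No column was left unmapped. Estimated counts were rounded, features with under 10 counts in more than 4 of 39 samples were left out, a rule taken from the study's methods, and edgeR 4.0.16 (TMM factors, quasi-likelihood test, R 4.3.3) was fitted with all groups sharing one estimate of spread. Adjusted p-values are Benjamini-Hochberg over 15224 genes. Injury numbers were compared over all their times, and 3xCHI and 5xCHI times also with the preceding injury at 24 h. Alternatives were DESeq2 1.42.0, limma 3.58.1, other filters and scalings, covariates, and leaving out each sample. CPM used TMM factors, and marker sums are sums of CPM. Correlations used Pearson's r and Spearman's rho of log2 CPM with 100000 permutations, two-sided. Named genes are the 10 members, up to 2 higher and 2 lower genes of each list with the lowest unadjusted p, and the 3 nearest genes of each member, 1 of which is not reported here. The members and lists were chosen with earlier results of these data known. No 2 samples of a group agreed within sampling noise (46 pairs). Fits were tested on simulated data first.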

Additional observations from a re-analysis of the deposited data

Results flagged for a closer look

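After 5xCHI, 1 of 10 mice stood apart in the balance of the filament subunits. The ratio of Nefh to Nefl, by CPM, was 0.288 in sample 11 (24 h) and between 0.178 and 0.228 in the other 9, and the gap to the nearest value was 0.541 of the whole range, where a gap above 0.466 is flagged for 10 samples. This mouse had the lowest Nefl and the lowest length tilt (-0.484) of all 39 samples. It also had the highest summed microglia markers (935 CPM), and the part of these in the ratio was not tested. In all, 91 groups of values were examined in this way and 1 was flagged, while chance flags about 1 in 20.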

How the results depend on the processing

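No paired analysis was possible because each sample number occurs in 1 group only. For 5xCHI against 1xCHI, the count of members past an adjusted p of 0.05 was 0 in edgeR, 2 with DESeq2 (Stmn1 and Gap43), 1 (Gap43) with all 40 samples, 1 (Gap43) with the sample number as a covariate and 1 (Gap43) with the 2 ranges of sample numbers (1 to 18 and 19 to 40) as a covariate. The last 3 fits called 187, 270 and 351 genes in all. When 1 sample was left out at a time it ran from 0 to 2: Gap43 was called without sample 26, 31 or 34 (302, 500 and 335 genes in all), and Stmn1 and Gap43 without sample 27 or 36 (620 and 567 genes). The genes called numbered 156 in all, 523 with DESeq2, 15 without samples 10 and 11, 380 without the 6 samples high in neighbouring tissue and 0 when the edgeR fit held the groups compared alone (1603 at an unadjusted p under 0.05). With 1 sample left out they ran from 0 (without sample 7, 1864 at an unadjusted p under 0.05) to 620 (without sample 27). For 1xCHI at 30 min against sham-injured, the count of members ran from 0 to 3, and it was 3 without sample 27 (Uchl1, Stmn1 and Gap43). Small differences often changed sign. Of 2400 values recomputed with 1 sample left out, 2288 kept their direction and side of the threshold, 10 newly passed it and 102 changed sign. Of 2470 values under 13 other settings these numbers were 2337, 5 and 128. The changes of sign touched 72 differences, and none of these had an unadjusted p under 0.05 as reported (lowest 0.0529). The farthest from 0 was Uchl1 at 1xCHI 30 min against sham-injured, 0.26 and -0.037 with the trends of length and GC content removed. Sptbn1 at 5xCHI 30 min against 4xCHI was -0.20, and 0.045 with the 2 ranges of sample numbers as a covariate. In 1 of them the new value passed an unadjusted p of 0.05: Uchl1 in 5xCHI against sham-injured was 0.03, and -0.133 with the trends of length and GC content removed (unadjusted p = 0.0235, adjusted p = 0.427). The cause was not tested. Groups of 2 to 4 mice limit what differences can be resolved, and depth was not limiting for members with 1361 counts or more.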
